A study of Mus musculus with 4 samples.

Results

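The interior of the joint-draining popliteal lymph node (PLN) was compared between Early and Advanced arthritis in spots that had tissue on all 6 sides. PLN sections lay on Visium arrays, called capture areas, whose grid of barcoded spots captures the polyadenylated RNA of a section. A unique molecular identifier (UMI) marks every captured molecule, so that copies made in amplification are not counted again. Cells of several types can share a spot, and a cell can be split between spots. A spot was taken as interior when its 6 nearest neighbours on the array were all under tissue, which left out the spots along the tissue margin and around holes. Of the 5286 spots of the Early area and both Advanced areas, 4091 met this rule, and 6119 spots were present in the whole series.

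The mice were TNF-Tg, which carry a human TNF transgene and develop inflammatory-erosive arthritis, and all were males on the C57BL/6 background because TNF-Tg females die early. The Early area held 6 PLNs of 3 TNF-Tg mice aged 5.5 months with Early arthritis. Each of the 2 Advanced areas held 6 PLNs of 3 TNF-Tg mice aged 8.5 to 9 months with Advanced arthritis, and the WT area, used here only as a reference level, held 10 PLNs of 5 wild-type mice aged 5.5 months. All nodes had been found with Evan's blue dye given into the hindpaw, the nodes of several mice were pooled on each area, and the 4 areas shared a single slide. The labels do not name the promoter that drives the transgene. Stage and age went together in these groups and cannot be told apart.

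Early had 1011 interior spots of 1489 (67.9%), Advanced area 1 had 1700 of 2015 (84.4%) and Advanced area 2 had 1380 of 1782 (77.4%). Their UMIs came to 1258521, 1760654 and 1134508, and WT added 580 interior spots with 373714 UMIs. The interior was the shallow part of every section, with medians of 140.5 to 250.5 UMIs per spot against 2113 to 5541 in the edge spots, and the deepest 10% of the interior spots of an area held between 51.1% and 70.8% of its interior UMIs. The Early sections lay in 4 pieces with at least 20 interior spots each, Advanced area 1 in 1 and Advanced area 2 in 2, so that an interior spot of Early was more often next to an edge spot. A second complete ring of tissue was present around 642 interior spots of Early, 1383 of Advanced area 1 and 1036 of Advanced area 2. Pairs of areas had between 464 and 1050 spot barcodes in common, since every array carries the same set of barcodes.

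**Figure D1:**
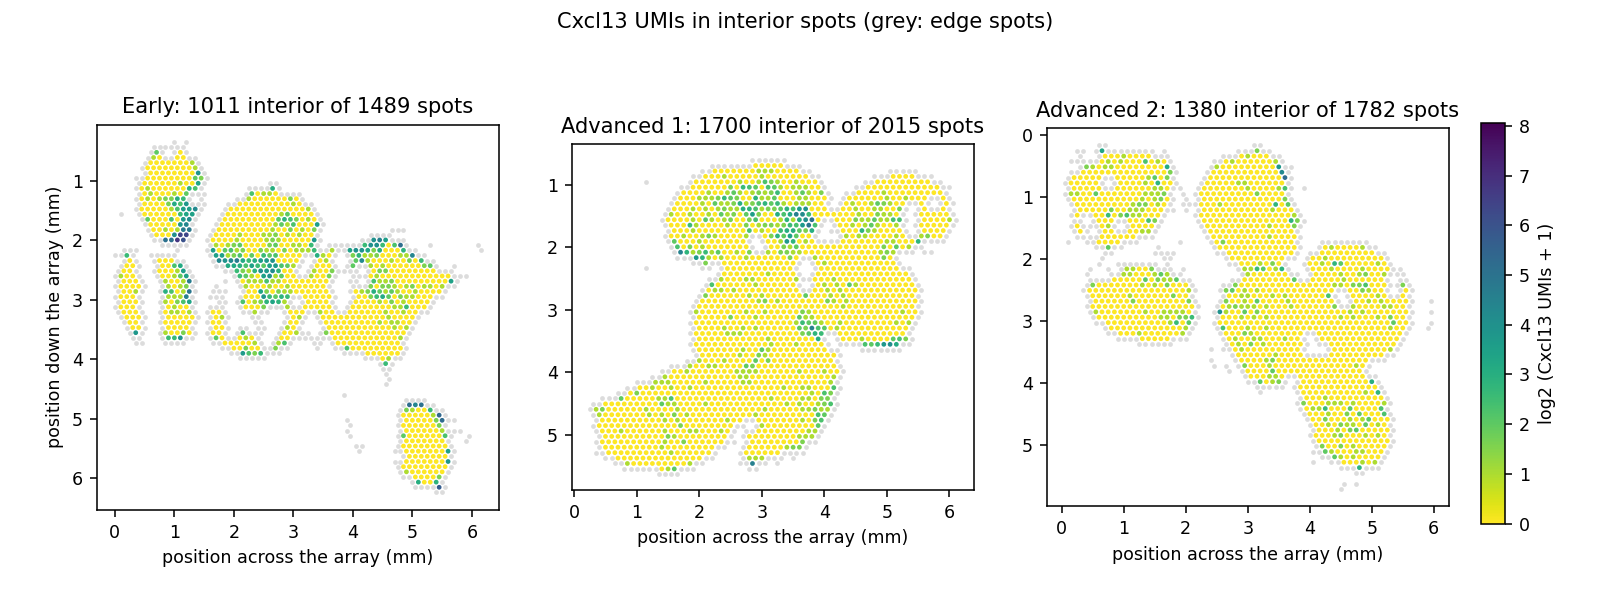
Each point is a spot at its place on the array in mm, for the Early area and both Advanced areas. Edge spots are grey and interior spots are coloured by log2 (Cxcl13 UMIs + 1). Cxcl13 was seen in 352 of 1011 interior spots of Early, with up to 109 UMIs in a spot, and in 421 of 1700 and 263 of 1380 in Advanced, with up to 32 and 38 UMIs.

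A lymph node filters the lymph that drains from a tissue. Lymph enters through a subcapsular sinus lined by lymphatic endothelium and macrophages, passes the B cell follicles beneath it and the T cell zone, and leaves through medullary sinuses, where antibody-secreting plasma cells gather in the cords between them. Stromal cells hold this plan together: follicular dendritic cells and marginal reticular cells make Cxcl13, which draws B cells, and fibroblastic reticular cells of the T cell zone make Ccl19 and Ccl21, which draw T cells and dendritic cells. B cells first carry IgM and can switch to IgG by joining the same variable region to another heavy chain constant region. The study asked how these nodes differ before and after they collapse, when their lymph flow falls and arthritis worsens.

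UMIs were summed per gene over the interior spots of each area and given as UMIs per 10000 interior UMIs. Both Advanced areas were compared with Early in edgeR's quasi-likelihood test over 11364 genes, as log2 differences of Advanced minus Early with Benjamini-Hochberg adjustment. Of these genes, 35 passed an adjusted p of 0.05 (0.308%), 16 higher in Advanced (0.141%) and 19 lower (0.167%), and 545 had an unadjusted p under 0.05. The 545 were no more than an unadjusted threshold of 0.05 passes when no gene differs. Early was a single area, so its spread was taken to be that of the Advanced areas, with 1 residual degree of freedom and the spread of each gene fully pooled with that of all genes. The number of calls varied with the processing. It was 2 with scaling by total UMIs, both lower, although the scaling factors of the areas differed only from 0.993 to 1.01, and 1 with DESeq2, which was Cxcl13. Spots are not replicates and p-values refer to the spread between areas.

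Of the 35 genes, 32 moved the same way on both Advanced areas, 13 higher and 19 lower, where 35% of all tested genes were above Early on both areas and 31.6% were below it. On 22 of the 35 the Advanced areas lay nearer to each other than either lay to Early, as did 32.2% of all genes. The 3 genes that did not move the same way were hemoglobin genes (Hba-a1, Hba-a2 and Hbb-bs). Both ratios share the single Early area and the genes were called on the same sums, so this count describes the calls and does not test them. The sign of the mean log2 ratio of both Advanced areas was then compared. In the spots with under 500 UMIs, which held the lesser part of the UMIs, 28 of the 32 kept it. After every spot had been thinned to 100 UMIs, 26 kept it. The ratios had the same small constant added to each area's count, and Early had the fewest UMIs in both sets of spots. Thinning left 594 spots in Early against 1157 and 991 in Advanced. A gene with no UMIs there therefore counts as lower, and the share of all tested genes is not given here. The counts of 28 and 26 thus describe the calls and do not test them. The single areas can differ in direction where the mean keeps its sign. In bulk sums of this kind, fewer cells of a type and less RNA per cell cannot be told apart.

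**Figure D2:**
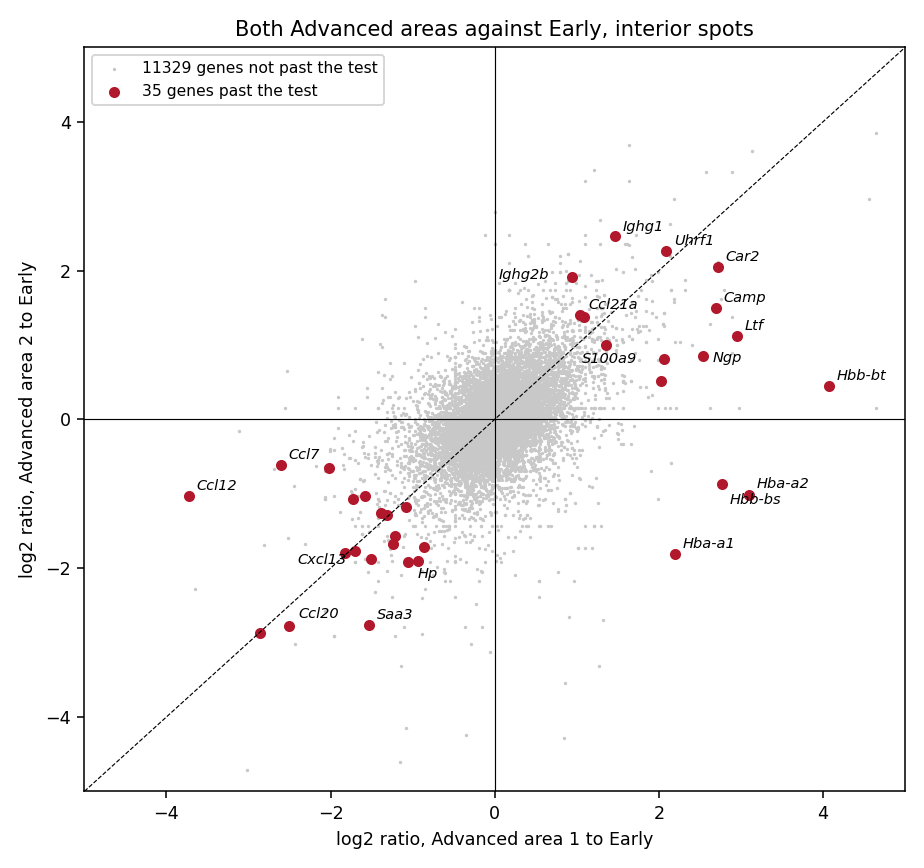
Each point is 1 of the 11364 tested genes, with its log2 ratio to Early on Advanced area 1 across and on Advanced area 2 upwards, 0.5 UMI added to each count. The 35 genes past the test are red and the dashed line marks equal ratios. The lower left corner holds the 19 lower genes, and Hba-a1, Hba-a2 and Hbb-bs lie at the lower right, high on Advanced area 1 and under Early on Advanced area 2.

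Ighg1 and Ighg2b, the constant regions of IgG1 and IgG2b, were higher in the Advanced interior and passed the test, while Ighg2c and Ighg3 of the same IgG family did not. Likewise Ighm, that of IgM, did not pass the test. Of the 8 heavy chain constant genes tested, 2 passed, both higher, and 5 were higher on both Advanced areas and none lower on both, with a median log2 difference of 0.80 where that of all genes was 0.02. The IgG genes are close paralogs, and how the counting divided shared reads among them was not stated in the sources used here.

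Ighg1 (ENSMUSG00000076614, chromosome 12 of GRCm38 from 113325240 to 113330523) took 4.70 UMIs per 10000 in the Early interior, 12.9 for Advanced area 1, 25.9 for Advanced area 2 and 137 in WT. Both Advanced areas were above Early and far below WT. The change against Early came to 4.10-fold (log2 difference 2.03, SE 0.33, edgeR adjusted p = 1.91e-06), and it passed the test under 7 of 12 other settings. Ighg2b (ENSMUSG00000076613, chromosome 12 from 113302965 to 113307933) took 53.7 UMIs per 10000 in the Early interior, 103 for Advanced area 1, 202 for Advanced area 2 and 199 in WT. Both Advanced areas were above Early, Advanced area 2 had nearly the WT level and Advanced area 1 lay between. Over the tissue pieces the ranges overlapped, from 7.25 to 79.2 in Early and from 68.9 to 235 in Advanced, and 6029 of the 6763 Early UMIs came from a single piece. Its difference was 2.82-fold (log2 difference 1.496, SE 0.35, edgeR adjusted p = 0.00914), called under 4 of 12 other settings. Leaving out Advanced area 1 gave log2 ratios to Early of 2.46 for Ighg1 and 1.91 for Ighg2b, and leaving out Advanced area 2 gave 1.46 and 0.94.

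Ighg2c, the IgG2c constant region, took 50.4 UMIs per 10000 in the Early interior, 85.04 for Advanced area 1, 155 for Advanced area 2 and 89.6 in WT, and its difference missed the test (log2 difference 1.24, SE 0.34, edgeR adjusted p = 0.0785). Ighm took 99.8 UMIs per 10000 in the Early interior, 85.4 for Advanced area 1, 142 for Advanced area 2 and 56.1 in WT. Advanced area 1 was below Early and Advanced area 2 above it, so IgM transcripts had no common direction (log2 difference 0.18, SE 0.33, edgeR adjusted p = 0.999). Ighg3 was likewise split, at 12.9 UMIs per 10000 in Early against 9.01 and 17.3 in Advanced, and Igha, the IgA constant region, was at 2.34 against 3.60 and 2.47.

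Set against Ighm in the same spots, the ratio of Ighg2b to Ighm UMIs was 0.538 in Early (95% counting interval 0.523 to 0.555), 1.21 for Advanced area 1 (1.18 to 1.24), 1.42 for Advanced area 2 (1.39 to 1.45) and 3.55 in WT (3.38 to 3.73). Ighg1 over Ighm was 0.0471 in Early, 0.152 for Advanced area 1 and 0.182 for Advanced area 2, and Ighg2c over Ighm was 0.505, 0.996 and 1.09. IgG thus had a larger part of the heavy chain transcripts in the interior of both Advanced areas than in Early, by more than counting error, and with a single Early area this was not tested. Ighg3 over Ighm stood at 0.129, 0.105 and 0.122 and showed no such shift. The ratios were computed within an area and do not depend on how the areas were scaled.

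Immunoglobulin genes together took 4.80% of the interior UMIs in Early, 6.29% for Advanced area 1, 9.40% for Advanced area 2 and 9.23% in WT. In spots with 2 rings of tissue the order changed, with 6.81% in Early, 5.49% for Advanced area 1 and 9.91% for Advanced area 2, so the higher total on Advanced area 1 depended on how deep the interior was drawn. Igkc, the kappa light chain constant region, took 211 UMIs per 10000 in the Early interior, 294 for Advanced area 1, 353 for Advanced area 2 and 408 in WT and did not pass the test (log2 difference 0.61, SE 0.35, edgeR adjusted p = 0.999). Of the 4 light chain constant genes tested, none passed, 1 was higher on both areas and 2 were lower on both.

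Plasma cell identity genes did not pass the test one by one. Of 14 tested, none was called, 12 were higher on both Advanced areas and none was lower on both, and their summed level was 19.0 UMIs per 10000 in Early, 21.7 and 28.2 in Advanced and 29.5 in WT. Jchain, which joins the units of secreted IgM and IgA, was at 9.13 in Early, 10.3 for Advanced area 1 and 14.2 for Advanced area 2 (log2 difference 0.41, SE 0.30, edgeR adjusted p = 0.999). Irf4, a transcription factor that plasma cells need, was at 1.33, 1.40 and 2.61 UMIs per 10000. The 17 genes of the endoplasmic reticulum that fold secreted proteins gave no calls, with 4 higher and 5 lower on both areas and a median log2 difference of -0.14. Variable region genes were nearly absent from the counts, at 0.026 UMIs per 10000 or less for all heavy chain variable genes together on any area, and none could be tested.

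**Figure D3:**
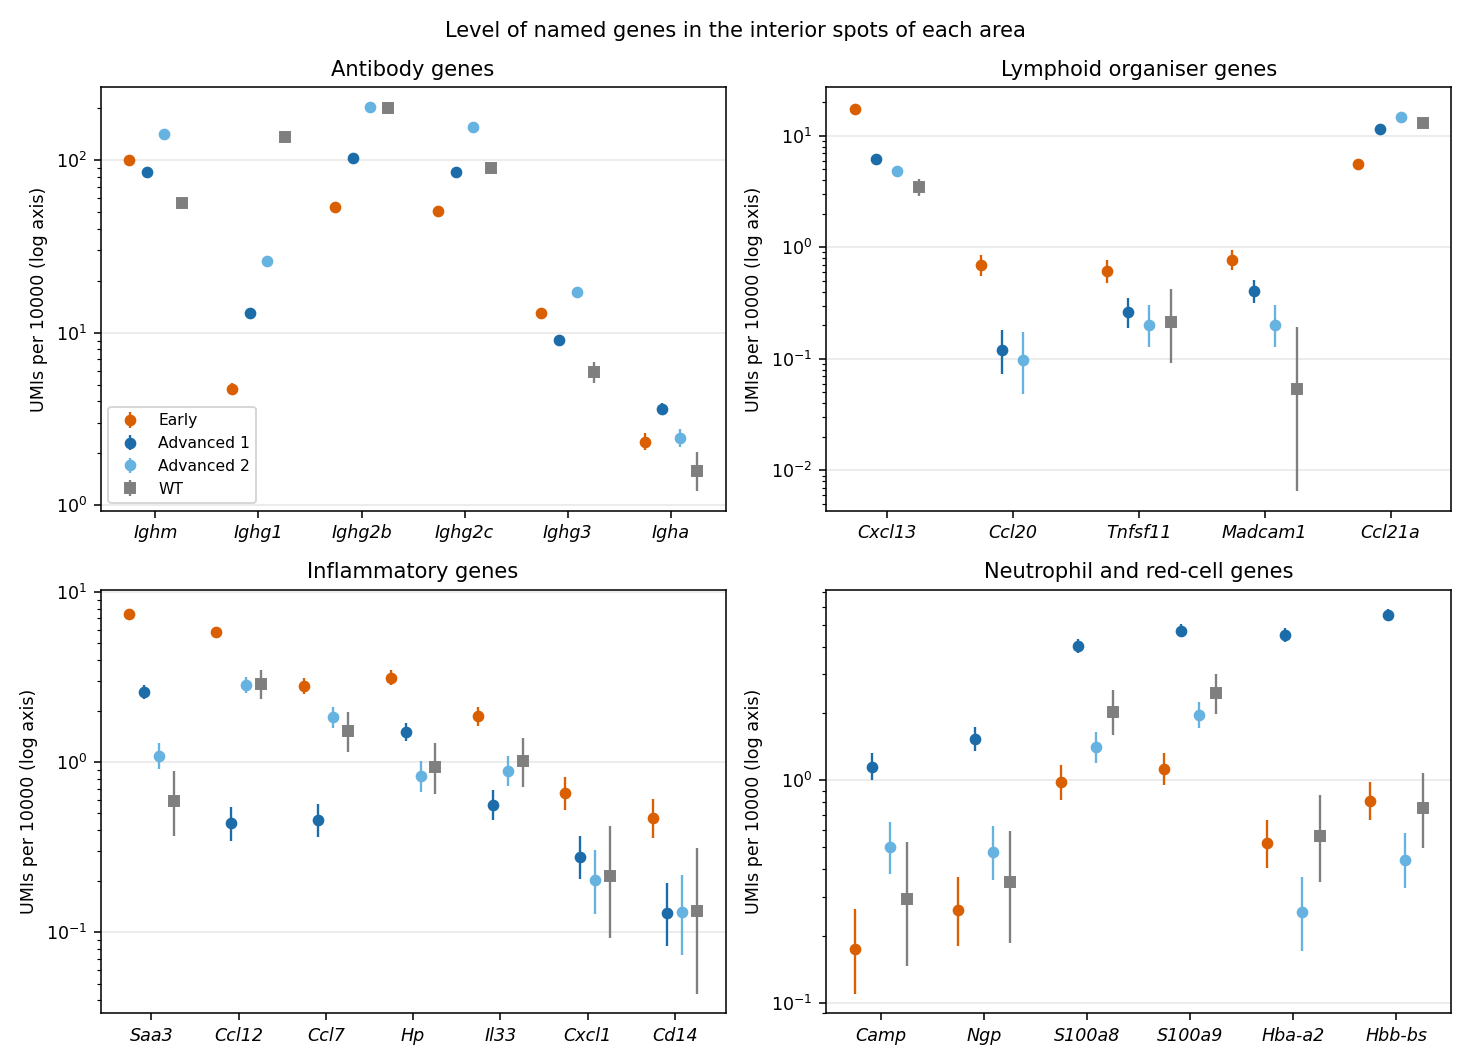
Level of named genes in the interior spots of each area, in UMIs per 10000 on a log axis. Bars are exact 95% Poisson intervals and cover counting error only, and genes with no UMI on an area have no point there. Ighg1 and Ighg2b were higher on both Advanced areas than in Early, Cxcl13, Ccl20 and Saa3 were lower on both, and the neutrophil and red-cell genes were highest on Advanced area 1.

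Cxcl13, Tnfsf11, Madcam1 and Ccl20 were lower in Advanced and all passed the test. They come from different lists and were not tested as a group. For Cxcl13 and Tnfsf11 both Advanced areas were nearer to WT than to Early. Cxcl13 (ENSMUSG00000023078, chromosome 5 from 95956951 to 95961068), the chemokine that draws B cells with the receptor Cxcr5 into follicles, took 17.6 UMIs per 10000 in the Early interior, 6.19 for Advanced area 1, 4.80 for Advanced area 2 and 3.48 in WT. The Advanced areas differed little from each other and both stood well under Early. The difference was 3.23-fold (log2 difference -1.69, SE 0.28, edgeR adjusted p = 3.69e-06), and it was called under 10 of 13 other settings, more than for any other gene.

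Cxcl13 was also spread over less of the interior. At least 1 of its UMIs was seen in 34.8% of the interior spots of Early, 24.8% for Advanced area 1 and 19.1% for Advanced area 2, although the median Advanced spot was deeper. In spots with under 500 UMIs its level was 15.2, 6.54 and 5.64 UMIs per 10000 in Early, Advanced area 1 and Advanced area 2, and in spots thinned to 100 UMIs it was 17.5, 6.48 and 5.35. The lower level was thus present in shallow and deep spots. Over the separate pieces of tissue with at least 20 interior spots, it ran from 13.5 to 25.9 in Early and from 2.85 to 6.19 in Advanced. The pieces are not replicates and describe the sections only. Advanced area 1 was 1 piece, and the Early value of 25.9 rested on 20 UMIs.

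Ccl20 (ENSMUSG00000026166, chromosome 1 from 83116766 to 83119167), the chemokine for cells with the receptor Ccr6, had 87 interior UMIs in Early, 21 for Advanced area 1, 11 for Advanced area 2 and none in WT. These counts made 0.691, 0.119 and 0.0970 UMIs per 10000, and the absence in WT allows up to 0.0803. The change was 6.32-fold lower (log2 difference -2.66, SE 0.38, edgeR adjusted p = 8.37e-09; called under 8 of 11 other settings). It rested on deep spots, since spots with under 500 UMIs held only 3, 3 and 4 of its UMIs.

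Tnfsf11, the cytokine RANKL, is made by marginal reticular cells of lymph nodes and drives osteoclast formation in bone. It took 0.612 UMIs per 10000 in the Early interior, 0.261 for Advanced area 1, 0.203 for Advanced area 2 and 0.214 in WT, a 2.62-fold lower level (log2 difference -1.39, SE 0.34, edgeR adjusted p = 0.0205). Madcam1, an adhesion molecule that marks the same reticular cells, the floor of the subcapsular sinus and some venules, took 0.771 UMIs per 10000 in the Early interior, 0.403 for Advanced area 1, 0.203 for Advanced area 2 and 0.0535 in WT (log2 difference -1.31, SE 0.32, edgeR adjusted p = 0.015). In all 3 areas these were low counts, with 23 to 77 UMIs for Tnfsf11 and 23 to 97 for Madcam1. Madcam1 was the only call among the 9 lymphatic endothelium genes tested, of which 4 were lower and 3 higher on both Advanced areas, with a median log2 difference of -0.11. The higher members were Flt4, the receptor for lymphatic growth factors, at 0.914, 1.12 and 1.29 UMIs per 10000, Mmrn1 at 0.429, 0.511 and 0.591, and Reln, the secreted protein reelin, at 0.342, 0.375 and 0.917.

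The other genes of follicular dendritic cells did not pass the test. Of 5 tested, Cxcl13 was the only call, and 4 were lower on both Advanced areas and 1 higher. Clu, clusterin, was at 44.6 UMIs per 10000 in Early, 29.7 for Advanced area 1 and 26.5 for Advanced area 2 (log2 difference -0.68, SE 0.30, edgeR adjusted p = 0.903), and Mfge8, which helps clear dying cells, was at 7.78, 6.29 and 3.98. B cell markers stayed closer to their Early level, with 17 tested, none called, 3 higher and 5 lower on both areas and a summed level of 50.8, 51.5 and 37.8 UMIs per 10000. Among them Cd79a, a signalling chain of the B cell receptor, was at 9.30, 8.12 and 7.03, and Cr2, the complement receptor of B cells and follicular dendritic cells, at 2.03, 1.76 and 1.23. The part of these levels in the Cxcl13 difference was not tested. No germinal centre gene of the 6 tested was called.

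Acute inflammatory mediators were the list with the lowest median. The lists were chosen with earlier results of these data known, so this rank describes the list and does not test it. Of its 10 tested members, 3 were called (Saa3, Ccl20 and Cxcl1), all lower, 9 were lower on both Advanced areas and none was higher on both, and the median log2 difference was -1.39. At least 1.5-fold lower levels on both areas were seen for 6 of the 10, against 3.27% of all genes, while 4.91% of all genes were at least 1.5-fold higher on both and no member of the list was. The summed level of the list was 13.2 UMIs per 10000 in Early, 4.85 and 4.73 in Advanced and 3.59 in WT. Saa3 alone gave 7.45 of the Early sum.

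Saa3 (ENSMUSG00000040026, chromosome 7 from 46711998 to 46715700), an acute-phase serum amyloid A made by macrophages and stromal cells in inflamed tissue, took 7.45 UMIs per 10000 in the Early interior, 2.58 for Advanced area 1, 1.09 for Advanced area 2 and 0.589 in WT. Both Advanced areas were under Early and above WT. The difference was 4.06-fold (log2 difference -2.02, SE 0.28, edgeR adjusted p = 3.7e-09; called under 8 of 13 other settings), with log2 ratios to Early of -1.53 for Advanced area 1 alone and -2.76 for Advanced area 2 alone. It came from deep spots and from part of the Early tissue. In spots with under 500 UMIs the levels were 0.962, 0.605 and 0.929 UMIs per 10000, and over the 4 Early pieces they ran from 0 to 9.50.

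The chemokines Ccl12, Ccl7 and Cxcl1 were lower and passed the test, the first 2 of them named after their values were seen. Ccl12, a ligand of the monocyte receptor Ccr2, took 5.82 UMIs per 10000 in the Early interior, 0.437 for Advanced area 1, 2.85 for Advanced area 2 and 2.86 in WT. Advanced area 1 was far below the others and Advanced area 2 was at the WT level (log2 difference -1.86, SE 0.28, edgeR adjusted p = 5.09e-08), with log2 ratios to Early of -3.73 and -1.03 for the areas on their own. Ccl7, another ligand of Ccr2, had the same order, with 2.81 in Early, 0.460 for Advanced area 1 and 1.83 for Advanced area 2 (log2 difference -1.34, SE 0.27, edgeR adjusted p = 0.000714), and ratios of -2.61 and -0.62 area by area. In spots with under 500 UMIs its difference was 0.22. Ccl2, a further ligand, was at 2.64, 0.863 and 2.05 UMIs per 10000 and missed the test (edgeR adjusted p = 0.212). Cxcl1, which recruits neutrophils, fell from 0.660 to 0.278 and 0.203 UMIs per 10000 (log2 difference -1.44, SE 0.34, edgeR adjusted p = 0.00914).

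Il33, an alarmin kept in the nuclei of stromal and endothelial cells, took 1.87 UMIs per 10000 in the Early interior, 0.562 for Advanced area 1, 0.890 for Advanced area 2 and 1.02 in WT (log2 difference -1.40, SE 0.27, edgeR adjusted p = 0.000173). Hp, haptoglobin, which binds free hemoglobin, took 3.15 UMIs per 10000 in the Early interior, 1.51 for Advanced area 1, 0.829 for Advanced area 2 and 0.937 in WT (log2 difference -1.43, SE 0.27, edgeR adjusted p = 0.000152). Both were below Early on each Advanced area. Il33 was under WT on both Advanced areas, and Hp was above WT on Advanced area 1 and under it on Advanced area 2. Cd14, the coreceptor for lipopolysaccharide on myeloid cells, had equal levels of 0.131 and 0.132 UMIs per 10000 in Advanced and 0.134 in WT, against 0.469 in Early (log2 difference -1.84, SE 0.41, edgeR adjusted p = 0.00328). Clec4n, the myeloid lectin dectin-2, was at 3.14 in Early, 1.05 and 1.53 in Advanced and 3.91 in WT (log2 difference -1.30, SE 0.27, edgeR adjusted p = 0.00125), and here WT stood with Early.

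Fn1 was the only call among the 12 genes of capsule and extracellular matrix tested, of which 5 were lower on both Advanced areas and 1 was higher, with a median log2 difference of -0.21. The higher member was Lum, the proteoglycan lumican, at 0.556 UMIs per 10000 in Early and 0.750 and 0.714 in Advanced. Fn1, fibronectin, was at 1.30 UMIs per 10000 in Early and at 0.494 and 0.538 in Advanced (log2 difference -1.35, SE 0.28, edgeR adjusted p = 0.00121), and Postn, the matrix protein periostin, at 1.21, 0.568 and 0.529 (log2 difference -1.15, SE 0.28, edgeR adjusted p = 0.0198). On both genes the Advanced areas agreed within counting error and lay at less than the Early level. Angptl4, an inhibitor of lipoprotein lipase, was at 1.49 in Early and at 0.596 and 0.608 in Advanced (log2 difference -1.32, SE 0.27, edgeR adjusted p = 0.00089; called under 7 of 11 other settings). Ces2e, a carboxylesterase, was at 0.373, 0.114 and 0.106 (log2 difference -1.77, SE 0.45, edgeR adjusted p = 0.0301), and the predicted gene Gm19951 and Mt2, described with the edge spots, were also among the 19 lower genes. Col3a1, a fibrillar collagen, was at 1.72, 1.22 and 0.546 and missed the test (edgeR adjusted p = 0.0972).

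Of 18 tested targets of NF-kB, the transcription factor that TNF activates, 1 was called (Tnfsf11, lower), 14 were lower on both Advanced areas and none was higher on both, with a median log2 difference of -0.33. Nfkbia, the inhibitor that NF-kB induces, was at 3.82 UMIs per 10000 in Early, 2.63 for Advanced area 1 and 3.11 for Advanced area 2. Icam1, an adhesion molecule, was at 3.61, 2.19 and 2.91. Neither passed the test. Interferon-stimulated genes gave no calls among 21, and the largest difference among those named, Cxcl10, was from 1.01 to 0.295 and 0.705 (edgeR adjusted p = 0.0727).

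The promoters of the called genes were searched for the kappa-B consensus, the site that NF-kB binds, on both strands of the 250 bases before the gene's start in RefSeq (GRCm38.p6). Of the 19 lower genes 12 had a promoter entry and 3 of these held a match, Ccl20, Cxcl1 and Madcam1, while none of 10 did among the 13 higher genes of common direction. Among the tested genes with an entry, 5.53% held a match. The 3 promoters are shown because they join a chemokine of follicle-associated tissue, a neutrophil chemokine and a marker of reticular cells that were all lower in Advanced, with the matches in capitals.
Ccl20, chr1:83116516-83116765, plus strand: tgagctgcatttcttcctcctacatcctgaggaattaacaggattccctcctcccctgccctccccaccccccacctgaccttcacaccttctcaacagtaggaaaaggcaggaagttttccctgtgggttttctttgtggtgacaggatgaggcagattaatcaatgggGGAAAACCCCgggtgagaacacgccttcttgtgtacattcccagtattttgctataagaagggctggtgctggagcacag
Cxcl1, chr5:90890995-90891244, plus strand: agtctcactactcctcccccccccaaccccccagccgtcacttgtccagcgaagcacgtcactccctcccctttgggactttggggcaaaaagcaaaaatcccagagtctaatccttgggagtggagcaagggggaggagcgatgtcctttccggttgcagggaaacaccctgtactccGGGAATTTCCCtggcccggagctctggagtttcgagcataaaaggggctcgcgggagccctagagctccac
Madcam1, chr10:79664309-79664558, plus strand: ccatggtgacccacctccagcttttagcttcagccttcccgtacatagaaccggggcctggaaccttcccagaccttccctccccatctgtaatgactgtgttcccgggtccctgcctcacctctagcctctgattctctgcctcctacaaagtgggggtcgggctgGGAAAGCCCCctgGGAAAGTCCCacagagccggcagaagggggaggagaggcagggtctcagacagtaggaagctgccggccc
Each match begins between 70 and 83 bases before the start. Cxcl1 has matches on opposite strands that overlap by all but 1 base, and Madcam1 has 2 separate matches. A match is a run of letters and not a measured binding site. Neither Cxcl13 nor Saa3 nor Tnfsf11 had these letters in this window.

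Ccl21a, unlike the chemokines above, was higher in Advanced. This ligand of Ccr7, made by fibroblastic reticular cells of the T cell zone and by lymphatic endothelium, took 5.63 UMIs per 10000 in the Early interior, 11.6 for Advanced area 1, 14.9 for Advanced area 2 and 12.9 in WT. Both Advanced areas stood at the WT level and Early at less (log2 difference 1.22, SE 0.31, edgeR adjusted p = 0.034; called under 5 of 13 other settings). Mouse strains carry near-identical copies of this gene, whose reads could have been shared with it. Over the pieces of tissue it ran from 0.62 to 7.82 in Early and from 11.6 to 20.6 in Advanced.

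Of the 8 fibroblastic reticular cell genes tested, Ccl21a was the only call, 4 were higher on both areas and 2 lower, and the median log2 difference was -0.02. The lower members were Bst1 and Pdpn, the latter with 60 UMIs in Early and 41 and 38 in Advanced. Cxcl12, a chemokine of reticular cells that holds plasma cells and their precursors, was at 12.0 UMIs per 10000 in Early, 20.6 for Advanced area 1 and 16.3 for Advanced area 2 (edgeR adjusted p = 0.999). T cell genes leaned higher without a call. Over all genes, 35% were higher on both Advanced areas and 31.6% lower. Of 21 tested, 16 were higher on both Advanced areas and 2 lower, with a median log2 difference of 0.27 and a summed level of 15.3 UMIs per 10000 in Early against 16.97 and 19.7 in Advanced and 24.1 for WT.

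The T cell receptor constant region Trbc2 was at 2.17 UMIs per 10000 in Early, 2.44 for Advanced area 1 and 2.85 for Advanced area 2, and Trac at 1.06, 1.25 and 1.46. Cd4 went the other way, at 2.40, 1.52 and 2.21. Ccl5, a chemokine of effector T cells and natural killer cells, was at 3.82, 4.03 and 9.90 (edgeR adjusted p = 0.454), so only Advanced area 2 stood apart. Cd6 on T cells and its ligand Alcam were near their Early level in the interior. The study proposed their interaction from single-cell data and from protein staining next to the sinuses, which RNA sums over interior spots do not measure. Cd6 was at 0.326, 0.403 and 0.370 with a log2 difference of 0.24 (SE 0.36), and Alcam at 0.421, 0.494 and 0.423 with 0.12 (SE 0.34). Both rested on 41 to 87 UMIs per TNF-Tg area, which left room for differences of either sign.

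Several granule genes and both calprotectin genes of neutrophils were higher, chiefly on Advanced area 1, while other members of the same list were not. Of 12 neutrophil genes tested, 5 were called, all higher, 8 were higher on both areas and 3 lower, and the median log2 difference was 1.51. The summed level of the list was 4.47 UMIs per 10000 in Early, 14.7 for Advanced area 1, 5.95 for Advanced area 2 and 6.69 in WT. The 3 lower members were the receptors Csf3r and Cxcr2 and the protease Mmp9, none of which passed the test. Mpo, a granule enzyme, was split, with 16 UMIs in Early, 56 for Advanced area 1 and 5 for Advanced area 2. Csf3r was at 0.715 UMIs per 10000 in Early, 0.483 for Advanced area 1 and 0.494 for Advanced area 2, Cxcr2 at 0.286, 0.261 and 0.159, and Mmp9 at 0.373, 0.346 and 0.176. Camp (chromosome 9 from 109847379 to 109849617), the antimicrobial peptide cathelicidin of neutrophil granules, took 0.175 UMIs per 10000 in the Early interior, 1.15 for Advanced area 1, 0.502 for Advanced area 2 and 0.294 in WT (log2 difference 2.25, SE 0.37, edgeR adjusted p = 2.59e-06). It had log2 ratios to Early of 2.69 for Advanced area 1 and 1.503 for Advanced area 2.

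The granule proteins Ngp and Ltf, the latter lactoferrin, had the same order. Ngp was at 0.262, 1.54 and 0.476 UMIs per 10000 (log2 difference 1.96, SE 0.34, edgeR adjusted p = 1.12e-05; ratios 2.53 and 0.85), and Ltf at 0.103, 0.829 and 0.229 (log2 difference 2.39, SE 0.43, edgeR adjusted p = 3.5e-05; ratios 2.96 and 1.12). S100a8 and S100a9, the subunits of calprotectin, were less apart on Advanced area 2. S100a9 was at 1.13, 4.71 and 1.97 (log2 difference 1.56, SE 0.31, edgeR adjusted p = 0.000506; ratios 2.06 and 0.81) and S100a8 at 0.985, 4.02 and 1.41 (log2 difference 1.46, SE 0.31, edgeR adjusted p = 0.00157; ratios 2.02 and 0.52). WT stood above Early for these calprotectin genes, at 2.46 for S100a9 and 2.03 for S100a8.

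Hemoglobin transcripts, which mark red cells and their precursors, moved with Advanced area 1 alone. The 5 tested genes summed to 1.82 UMIs per 10000 in Early, 13.2 for Advanced area 1, 0.908 for Advanced area 2 and 1.66 in WT. Hba-a2, Hbb-bs and Hba-a1 had this order, and Hbb-bt did not. Hba-a2 was at 0.524, 4.52 and 0.256 (log2 difference 2.19, SE 0.33, edgeR adjusted p = 5.09e-08), Hbb-bs at 0.810, 5.53 and 0.441 (log2 difference 1.88, SE 0.32, edgeR adjusted p = 5.43e-06) and Hba-a1 at 0.413, 1.91 and 0.115 (log2 difference 1.33, SE 0.31, edgeR adjusted p = 0.00953). On Advanced area 2 alone their log2 ratios to Early were -1.02, -0.87 and -1.81, so the sign of the call belonged to a single area. Hbb-bt had 8 UMIs in Early, 200 for Advanced area 1 and 10 for Advanced area 2 (log2 difference 3.31, SE 0.47, edgeR adjusted p = 7.41e-09; ratios 4.08 and 0.45). Hba-a1 and Hba-a2 are close paralogs, so how their counts divide is uncertain. Red-cell and neutrophil genes were thus highest on the same area, and the part of blood content in the neutrophil values was not tested.

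**Figure D4:**
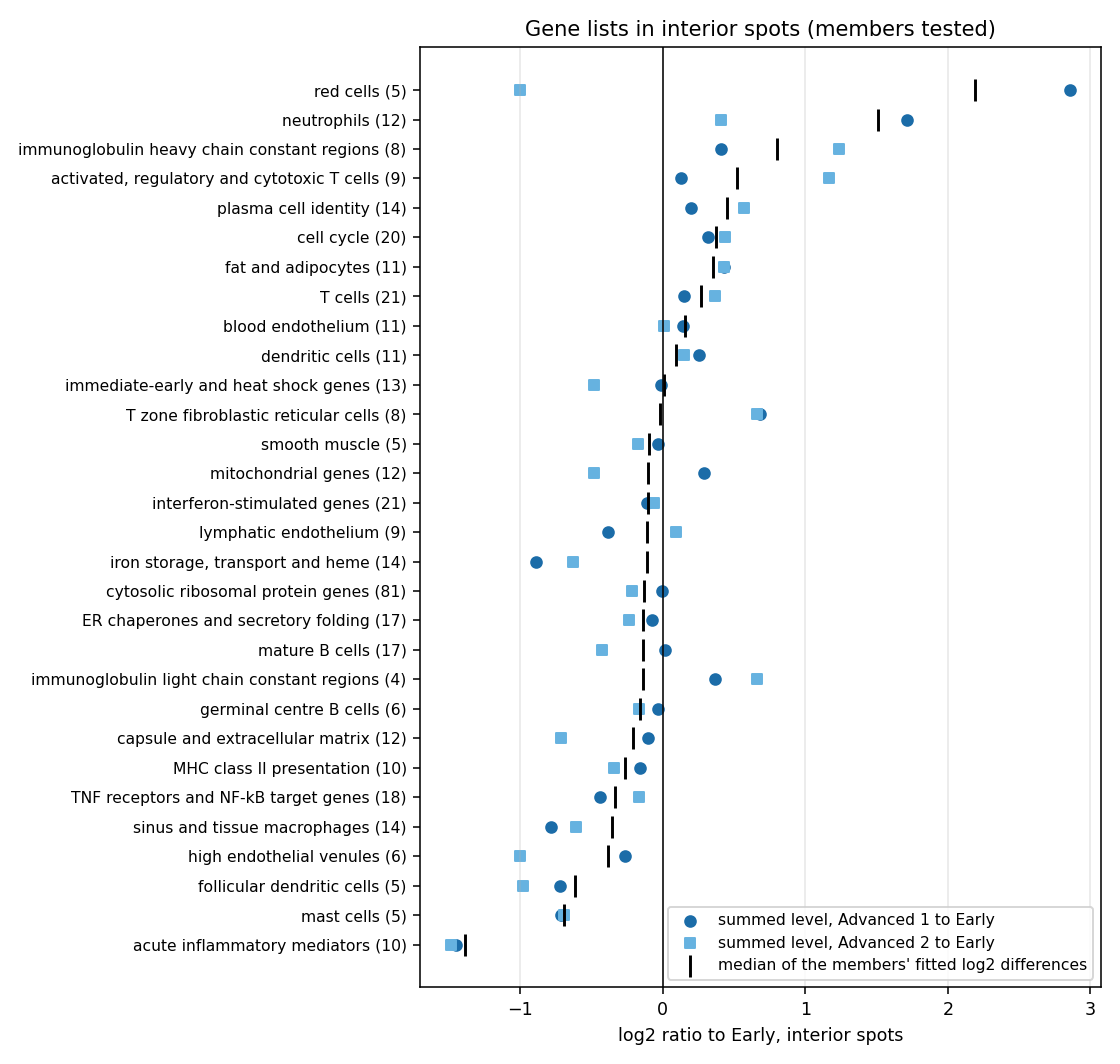
Log2 ratio to Early of the summed level of each gene list in interior spots, for Advanced area 1 (circles) and Advanced area 2 (squares), with the median of the members' fitted log2 differences as a black bar and the number of tested members in brackets. Acute inflammatory mediators have the lowest median (-1.39), and the red-cell list is the only one with its areas more than 3 log2 units apart.

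Macrophage genes were mostly below Early but did not pass the test. Of 14 sinus and tissue macrophage genes tested none was called, 10 were lower on both Advanced areas and 3 higher, with a median log2 difference of -0.35 and a summed level of 119 UMIs per 10000 in Early, 69.5 and 78.1 in Advanced and 65.05 in WT. In spots thinned to 100 UMIs the sums were 58.2, 45.4 and 61.5 on the TNF-Tg areas, so only Advanced area 1 was lower there. Marco is a scavenger receptor of sinus macrophages, and the study also used it as a marker of sinus lymphatic endothelium. It took 38.0 UMIs per 10000 in the Early interior, 20.9 for Advanced area 1, 26.4 for Advanced area 2 and 21.9 in WT (log2 difference -0.70, SE 0.30, edgeR adjusted p = 0.849). The summed level of the list thus need not come from macrophages alone. Lyz2, lysozyme of myeloid cells, took 49.3 UMIs per 10000 in the Early interior, 28.6 for Advanced area 1, 21.3 for Advanced area 2 and 18.4 in WT (log2 difference -0.997, SE 0.30, edgeR adjusted p = 0.178). Csf1r, the receptor on which macrophages depend, was at 5.40, 3.20 and 3.75. For Marco, Lyz2 and Csf1r the Advanced areas lay under Early. The 3 higher members of the list were Adgre1, Mrc1 and Alcam, and Cd5l was above Early on Advanced area 2 only.

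Fth1, the heavy chain of ferritin, took 60.9 UMIs per 10000 in the Early interior, 30.8 for Advanced area 1, 35.2 for Advanced area 2 and 36.5 in WT (log2 difference -0.90, SE 0.30, edgeR adjusted p = 0.356). Over the tissue pieces Fth1 ran from 53.9 to 72.3 in Early and from 26.9 to 37.3 in Advanced. Ftl1, the light chain, was at 20.6, 10.1 and 15.4 UMIs per 10000, and Hmox1, which opens heme and frees its iron, at 2.34, 0.579 and 1.77 (edgeR adjusted p = 0.0511). Haptoglobin was the only call among the 14 iron and heme genes tested, 6 of which were lower and 4 higher on both areas. The higher members were Tfrc, with 37 UMIs in Early and 85 and 70 in Advanced, Blvra, Slc48a1 and Steap3. Macrophage levels moved with the lower inflammatory genes, and their part in those differences was not tested.

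Genes of antigen presentation by MHC class II were a little lower, with 8 of 10 lower on both areas, none called and a median log2 difference of -0.27. Cd74, the invariant chain, was at 67.5 UMIs per 10000 in Early, 52.8 for Advanced area 1 and 52.9 for Advanced area 2. Cell cycle genes leaned higher, with 14 of 20 higher on both areas, 1 lower, none called and a median of 0.37. Hmgb2, a chromatin protein of dividing cells, was at 1.24, 1.72 and 1.94. Uhrf1, which keeps DNA methylation through replication, passed the test on low counts of 10 UMIs in Early and 62 and 45 in Advanced (log2 difference 2.20, SE 0.49, edgeR adjusted p = 0.00418).

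The remaining higher genes were Kcnn4, Gpx3 and Car2. Kcnn4, a calcium-activated potassium channel of lymphocytes and red cells, was at 0.477, 1.02 and 1.24 UMIs per 10000 (log2 difference 1.23, SE 0.31, edgeR adjusted p = 0.0234). Gpx3, a secreted glutathione peroxidase, was at 0.509, 1.31 and 1.02 (log2 difference 1.19, SE 0.30, edgeR adjusted p = 0.0301). Car2, a carbonic anhydrase, had 5, 50 and 20 UMIs (log2 difference 2.53, SE 0.66, edgeR adjusted p = 0.0382). The WT levels of Kcnn4 and Gpx3, 1.12 and 1.07, lay between those of the Advanced areas.

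No member was called on the lists for dendritic cells, effector T cells, high endothelial venules, blood endothelium, smooth muscle, fat, mast cells and immediate-early and heat shock genes, nor among 81 cytosolic ribosomal protein and 12 mitochondrial genes. Fat genes, which mark tissue outside the node, summed to 7.58 UMIs per 10000 in Early and 10.2 on each Advanced area, and their level in interior spots was 0.541, 0.335 and 0.292 times that in edge spots of the same area. Immediate-early and heat shock genes, which rise when tissue is handled, summed to 22.3, 22.2 and 16.0 UMIs per 10000, and mitochondrial genes to 97.2, 119 and 69.5.

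The same contrast was made in edge spots, where 30 of 12188 genes passed (0.246%), and the difference between interior and edge was tested as an interaction of stage and position, with the area as a block. Of 12248 genes 6 passed that test (0.049%), which were Hbb-bt, Hba-a2, Hbb-bs, Hba-a1, Mcpt4 and Mt2. The leading interior genes did not. The edge difference was -1.04 for Cxcl13 (SE 0.16, edgeR adjusted p = 0.00113), -2.22 for Saa3 (adjusted p = 1.23e-07), -1.41 for Ccl20 (adjusted p = 0.00057) and 1.76 for Ighg1 (adjusted p = 7.5e-06). These are edgeR values and lie in the direction of the interior. The interaction was -1.27 for Ccl20 (SE 0.38, edgeR adjusted p = 0.389) and -0.64 for Cxcl13 (SE 0.25, edgeR adjusted p = 1), which does not show that interior and edge changed alike. Of the 32 interior genes with a common direction, 31 kept their sign in edge spots by the mean log2 ratio of both Advanced areas. Interior and edge come from the same sections and share the single Early area, and the share of all tested genes is not given here. This count thus describes the calls and does not test them. In edge spots the areas themselves could be split, as they were for Mt2, Angptl4 and Ces2e.

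The hemoglobin genes stood near their edge level in the interior of Advanced area 1 and far under it in the interior of the other areas. Hbb-bs took 9.59, 6.76 and 7.67 UMIs per 10000 in the edge spots of Early, Advanced area 1 and Advanced area 2, against 0.810, 5.53 and 0.441 in the interior. Mcpt4 (chromosome 14 from 56059629 to 56062313), a mast cell chymase, was lower in the interior of both Advanced areas and not at the edge. It took 1.48 UMIs per 10000 in the Early interior, 0.858 for Advanced area 1, 0.670 for Advanced area 2 and 1.204 in WT in the interior (log2 difference -0.95, SE 0.27, edgeR adjusted p = 0.0902), and 0.704, 0.958 and 0.998 at the edge. Early thus had more of it inside than at the edge and the Advanced areas did not (interaction -1.38, SE 0.27, edgeR adjusted p = 0.00112). Tpsb2, a mast cell tryptase, was at 0.707, 0.290 and 0.441 in the interior without passing the test, and 4 of the 5 mast cell genes tested were lower on both Advanced areas.

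Mt2, a metallothionein that binds zinc, took 2.22 UMIs per 10000 in the Early interior, 0.545 for Advanced area 1, 1.41 for Advanced area 2 and 1.61 in WT in the interior (log2 difference -1.23, SE 0.27, edgeR adjusted p = 0.00333) and 1.21, 0.680 and 1.65 at the edge. Advanced area 2 was above Early at the edge and below it inside. On their own the Advanced areas had interior log2 ratios of -2.02 and -0.66. The interaction was -1.09 (SE 0.26, edgeR adjusted p = 0.0475).

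**Figure D5:**
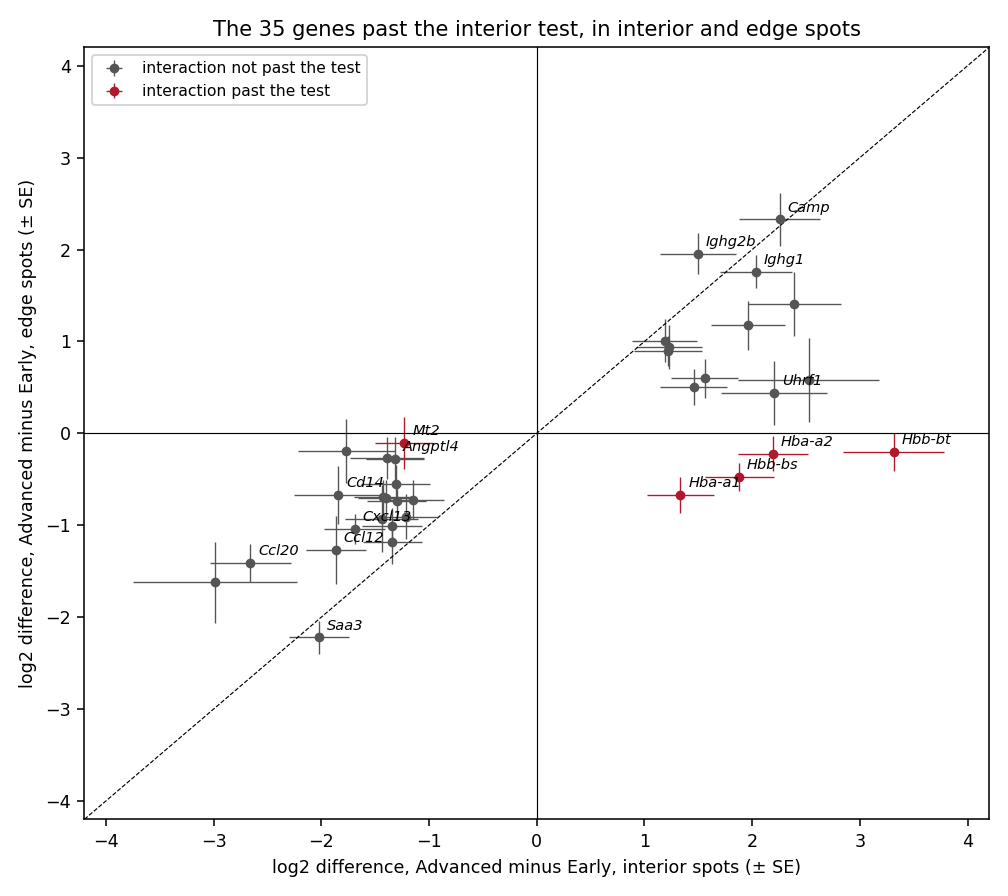
Log2 difference of Advanced minus Early in interior spots across and in edge spots upwards for the 35 genes past the interior test, with bars of 1 SE. The dashed line marks equal differences, and genes past the interaction test are red. Ighg1, Ighg2b, Saa3 and Cxcl13 lie on the same side of 0 in both, and the hemoglobin genes are above 0 only in the interior.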

How the data were processed

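UMI counts per gene and spot were deposited by the authors without normalization, made with Space Ranger 1.1.0 on mm10 (GRCm38), and only spots under tissue were present. Of the features, 32235 of 32287 had an identifier in GENCODE M21, the source of the coordinates. UMIs were summed over the interior or the edge spots of each area. Interior sums held 1258521 (Early), 1760654 and 1134508 (Advanced) and 373714 (WT) UMIs. Edge spots had at least 1 of 6 neighbours outside tissue. Early (1 area) was compared with Advanced (2 areas) by edgeR 4.0.16 (quasi-likelihood test, TMM scaling, filterByExpr by group, R 4.3.3), with Benjamini-Hochberg adjustment and a call at 0.05. WT was not in the fits. The fits were tested on simulated data. For single areas, log2 ratios had 0.5 UMI added, and Poisson and ratio intervals (95%) cover counting error only. Doublets have no meaning for spots, which were not clustered.

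The genes and the 28 lists were chosen with earlier results of these data known. Named were the genes central to the study's text, the 12 genes with the largest change in each direction (at least 30 UMIs, same direction on both Advanced areas, called genes first, ranked by the smaller of the areas' changes), up to 4 members of each list by total count, and up to 4 genes of the interaction test. Ccl12, Ccl7, Clec4n, Mt2, Madcam1 and Gm19951 passed the test outside this rule and were named after their values were seen. So were members that differed in direction from the rest of their list or from its named members (Flt4, Mmrn1, Reln, Lum, Csf3r, Cxcr2, Mmp9, Mpo, Adgre1, Mrc1, Cd5l, Tfrc, Blvra, Slc48a1, Steap3 and Pdpn). Alternatives were scaling by total UMIs, DESeq2 1.42.0, filters on low counts, other definitions of the interior, depth filters and immunoglobulin genes left out. Spots over and under 500 UMIs, edgeR's newer quasi-likelihood fit and limma-voom (limma 3.58.1) were added after the data had been seen. Spot images and the study's single-cell data were not used here. Not every gene that the rule named is reported here.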

Additional observations from a re-analysis of the deposited data

Results flagged for a closer look

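In 6 genes the Advanced to Early difference in interior spots departed from that in edge spots of the same areas by edgeR's interaction test. Hemoglobin genes made up 4 of them, with an interaction of 3.32 on the log2 scale for Hbb-bt, 1.89 for Hba-a2, 1.79 for Hbb-bs and 1.75 for Hba-a1, and their interior levels were high on Advanced area 1 only. Without Advanced area 1, the interior log2 ratio to Early was 0.45 for Hbb-bt, -1.02 for Hba-a2, -0.87 for Hbb-bs and -1.81 for Hba-a1. The other 2 were Mcpt4 at -1.38 and Mt2 at -1.09, lower in the interior of both Advanced areas. None of the 6 passed with DESeq2 or with 2 rings of neighbours. Groups had 1 or 2 areas, too few for a search for outlying samples.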

How the results depend on the processing

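No paired analysis was possible because Early had a single area, so that the groups had only 1 replicate number in common. The 35 calls in the interior comparison became 2 with scaling by total UMIs (none higher and 2 lower, against 16 and 19), 1 with DESeq2 (64 genes at an unadjusted p under 0.05), 0 with edgeR on genes with at least 10 UMIs in every area (341 at an unadjusted p under 0.05), 3 with 2 rings of neighbours, 3 with spots of at least 100 UMIs, 0 with spots thinned to 100 UMIs (92 at an unadjusted p under 0.05, 3069 genes tested) and 10 with spots under 500 UMIs. It was between 24 and 36 in the other 6 settings. The 6 calls of stage by position became 0 with DESeq2 (8 at an unadjusted p under 0.05) and 0 with 2 rings. In the 5 edgeR settings that left 3 interior calls or fewer, the prior degrees of freedom, which set how strongly the spread of a gene is pooled with that of all genes, were 5.10 to 45.4, while in the other edgeR settings of that comparison they were infinite. With 1 Advanced area left out there was no test.

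The Advanced to Early ratio of the immunoglobulin share, 1.63, was 1.13 with 2 rings and from 1.31 to 1.96 with an Advanced area left out. That of Ighg2b over Ighm, 2.44, was 3.25 in spots under 500 UMIs and from 2.25 to 2.64 with an area left out. The cause of these shifts was not tested.

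Log2 differences of named genes, leaving out those given only by name or UMI count, changed sign as follows. With 2 rings they were -0.37 for Ighm, -0.23 for Ighg3, -0.23 for Jchain, -0.20 for Trbc2, -0.12 for Cd6 and 0.144 for Mmp9. With at least 5 of 6 neighbours they were -0.46 for Ighg3, -0.0193 for Igha, -0.94 for Hba-a1 and -0.48 for Hbb-bs. Limma-voom gave -0.0469 for Ighg3. With thinned spots they were -0.0426 for Igha, -0.44 for Irf4, 0.25 for Mfge8, 0.45 for Icam1, -0.29 for Trbc2 and 0.83 for Mcpt4. In spots under 500 UMIs they were -0.77 for Irf4, 0.38 for Mfge8, 0.22 for Ccl7, 0.12 for Ccl2, 0.51 for Icam1, 0.10 for Cd4, -0.33 for Ccl5, 0.29 for Csf1r, 1.21 for Col3a1 and -0.146 for Flt4. With an Advanced area left out they ran from -0.22 to 0.51 for Ighm, -0.52 to 0.42 for Ighg3, -1.81 to 2.20 for Hba-a1, -1.02 to 3.10 for Hba-a2 and -0.87 to 2.76 for Hbb-bs. Of these genes, Ccl7 and the hemoglobin genes had passed the interior test.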

Other observations

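Over the connected pieces of tissue with at least 20 interior spots, which are not replicates and may hold more than 1 node, Ighg1 ran from 0.71 to 6.85 UMIs per 10000 in Early and from 12.9 to 26.7 in Advanced. On Early, Ighg2b and Ighm were highest in the largest piece, of 657 interior spots, where Ighm reached 131 UMIs per 10000. Ccl12 was at 10.8 in the Early piece of 208 interior spots and between 2.21 and 3.94 in the other Early pieces, and the pieces of Advanced area 2 had 2.73 and 3.34.

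Transcripts of single genes were gathered in few spots. The 10 richest interior spots held 25.8% of the Cxcl13 UMIs of Early, 19.8% of those of Advanced area 1 and 23.1% for Advanced area 2. For Ighg1 these shares were 38.9%, 31.5% and 22.5% in the same order, and it was seen in 15.2%, 25.5% and 30.8% of the interior spots.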
